A study of Homo sapiens with 12 samples.

Results

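The 7 genes described here are the oncogenes that the immunoglobulin translocations of multiple myeloma switch on, with the integrin gene ITGB7 and the 3 D cyclins. They are FGFR3, NSD2 (listed in the expression table under its older symbol WHSC1), MAF, ITGB7, CCND1, CCND2 and CCND3. They were picked by symbol from the 29607 genes of the expression table, and all 7 were found. KMS11, a long-established cell line from a human myeloma, was profiled by RNA sequencing after poly(A) selection, with 2 libraries in each of 6 groups. The sh1 and sh2 cells carried a hairpin against STK17B, a serine/threonine kinase. The inhibitor cells received an STK17B inhibitor that the labels do not name and whose dose and time they do not give, and the overexpression cells carried an STK17B cDNA. The shControl cells carried a control hairpin and the Vector cells a control vector. The series' design text says that the inhibitor was given to control-hairpin cells beside a vehicle. None of the 6 groups carries a vehicle label, so the inhibitor was set against shControl. No label says whether the shControl cells received the vehicle, so its effect cannot be told apart from that of the inhibitor. Every group came from the same line, and no label says whether the libraries of a group came from separate cultures. P-values therefore measure only the spread between libraries, which may be technical.

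In myeloma, a translocation can bring an oncogene under the enhancers of the immunoglobulin heavy chain locus. The 4p16 translocation drives FGFR3, a receptor tyrosine kinase for fibroblast growth factors, from one derivative chromosome and NSD2, which methylates histone H3 at lysine 36, from the other. The 16q23 translocation drives MAF, a basic leucine zipper transcription factor known to raise ITGB7 and CCND2. KMS11 is known to carry both translocations. D cyclins activate CDK4 and CDK6, which phosphorylate the retinoblastoma protein and release E2F factors, and myelomas commonly express at least 1 of them.

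On GRCh38 (GENCODE v29), all 7 are annotated as protein coding. FGFR3 spans 1793293 to 1808872 and NSD2 spans 1871424 to 1982207, both on the plus strand of chromosome 4. MAF spans 79585843 to 79600714 on the minus strand of chromosome 16. ITGB7 spans 53191318 to 53207307 on the minus strand of chromosome 12, which also holds CCND2, at 4273772 to 4305350 on the plus strand. CCND1 spans 69641087 to 69654474 on the plus strand of chromosome 11, and CCND3 spans 41934933 to 42050357 on the minus strand of chromosome 6. The RefSeq promoter windows (GRCh38.p14, 250 bases before to 50 bases after the start) covered 5 of the 7 genes in 7 windows; CCND1 and CCND2 were not matched. Of these windows, 3 are shown because MAF and its known target ITGB7 did not move together below, while FGFR3 is the most abundant of the 7 transcripts. Capitals mark TGCTGA or its reverse complement TCAGCA, a part of the MAF recognition element called the MAF site here. They also mark the cAMP response element (TGACGTCA, which reads alike on both strands). The windows are chr16:79600688-79600987 (minus strand) for MAF, chr12:53207202-53207501 (minus strand) for ITGB7 and chr4:1793043-1793342 (plus strand) for FGFR3.
MAF: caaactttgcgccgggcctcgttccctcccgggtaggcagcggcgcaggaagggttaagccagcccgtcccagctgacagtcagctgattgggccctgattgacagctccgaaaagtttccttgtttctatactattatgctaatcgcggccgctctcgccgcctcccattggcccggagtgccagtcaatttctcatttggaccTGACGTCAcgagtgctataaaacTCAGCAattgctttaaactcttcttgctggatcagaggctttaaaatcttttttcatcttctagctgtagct
ITGB7: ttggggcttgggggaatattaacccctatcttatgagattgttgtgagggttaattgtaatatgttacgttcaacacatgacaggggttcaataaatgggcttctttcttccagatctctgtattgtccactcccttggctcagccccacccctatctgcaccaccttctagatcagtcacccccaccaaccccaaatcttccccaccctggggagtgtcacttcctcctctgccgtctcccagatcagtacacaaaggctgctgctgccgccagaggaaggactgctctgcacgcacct
FGFR3: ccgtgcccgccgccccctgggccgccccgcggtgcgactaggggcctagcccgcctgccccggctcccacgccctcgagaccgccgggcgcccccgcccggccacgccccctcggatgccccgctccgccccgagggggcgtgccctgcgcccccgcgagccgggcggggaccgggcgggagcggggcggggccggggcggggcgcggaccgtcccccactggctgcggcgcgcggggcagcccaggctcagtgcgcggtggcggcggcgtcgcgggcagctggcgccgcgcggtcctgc
The MAF window held 1 of each motif, which do not overlap, and the ITGB7 and FGFR3 windows held neither. Of 35116 promoter windows of this length, 17.3% held the MAF site on either strand and 1.85% held the cAMP response element. The NSD2 window held neither motif, and 1 of the 3 CCND3 windows held the MAF site. G and C made up 51.7% of the MAF window, 51.7% of the ITGB7 window, 86.3% of the FGFR3 window and 86.7% of the NSD2 window. These matches describe letters in a window and say nothing of binding.

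Values were TPM, a unit that corrects for gene length and scales each library to the same total. The sequencing depth is therefore unknown, and levels can be compared between genes. The number of genes above 0 ranged from 16577 to 17354 over the libraries. The table's control columns carry library numbers and no group names, and which is shControl and which is Vector was inferred from those numbers. STK17B was at 12.7 and 10.9 TPM in the sh1 libraries and 14.7 and 14.5 TPM in the sh2 libraries, against 27.1 and 27.4 TPM in shControl, a log2 change of -0.998 for both hairpins together (SE 0.07, adjusted p = 6.99e-06). With the inhibitor it was at 24.9 and 22.4 TPM, which did not differ past the threshold from shControl (adjusted p = 0.0902). In the overexpression libraries it was at 94.1 and 84.5 TPM, against 28.2 and 31.5 TPM in Vector (log2 change 1.55, SE 0.08, adjusted p = 2.41e-06). Of 10 plasma cell markers, 8 reached 1 TPM in both shControl libraries, while CD38 did not exceed 1.47 TPM and CD27 did not exceed 0.27 TPM in any library. MS4A1, PAX5 and CD22 of the B cell list were below 1 TPM throughout, while CR2 of that list ranged from 2.40 to 3.64 TPM. Of the T and NK cell list, CD3D was at 0 in every library and CD2, NKG7 and GNLY were below 1 TPM, while CD3E ranged from 3.23 to 7.74 TPM and CD7 from 139 to 442 TPM. Of the myeloid, stromal, epithelial and erythroid lists, EPCAM (5.0 to 7.99 TPM) and KRT18 (3.88 to 7.97 TPM) were the only genes above 1 TPM in every library. The summed plasma cell markers were at 1633 to 1636 TPM in sh1, 1907 to 1917 TPM in sh2, 1739 to 1774 TPM with the inhibitor and 2131 to 2137 TPM in overexpression, against 2368 to 2395 TPM in shControl and 2587 to 2602 TPM in Vector. Like CCND2, these sums were lower than in the control with the hairpins, the inhibitor and overexpression. FGFR3, NSD2 and MAF were instead higher with overexpression, MAF with the hairpins, and NSD2 and ITGB7 with the inhibitor. The part of these markers in the results was not tested. In bulk RNA, fewer cells that express a gene and less RNA per cell cannot be told apart.

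FGFR3 and ITGB7 were among the most abundant transcripts of the line. Over the 12 libraries FGFR3 ranked between 110 and 182 of 29607 genes and ITGB7 between 157 and 212. MAF ranked between 593 and 1670, NSD2 between 769 and 1091, CCND2 between 1292 and 1859, CCND3 between 3069 and 3915, and CCND1 between 10363 and 11656. The order by TPM was FGFR3, ITGB7, NSD2, MAF, CCND2, CCND3 and CCND1 in the shControl libraries. FGFR3 and ITGB7 were adjacent, at 988 and 1031 TPM against 939 and 1001 TPM, and overlapped in the inhibitor libraries. MAF stood above NSD2 in overexpression and Vector, below it in shControl, sh2 and the inhibitor group, and overlapped with it in sh1. In the inhibitor libraries MAF, at 90.7 and 88.0 TPM, overlapped with CCND2, at 91.0 and 89.7 TPM. Across libraries the highest value exceeded the lowest by 2.57-fold for MAF, 1.78-fold for FGFR3 and for CCND1, 1.52-fold for CCND3, 1.5-fold for ITGB7, 1.48-fold for CCND2 and 1.4-fold for NSD2.

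**Figure D1:**
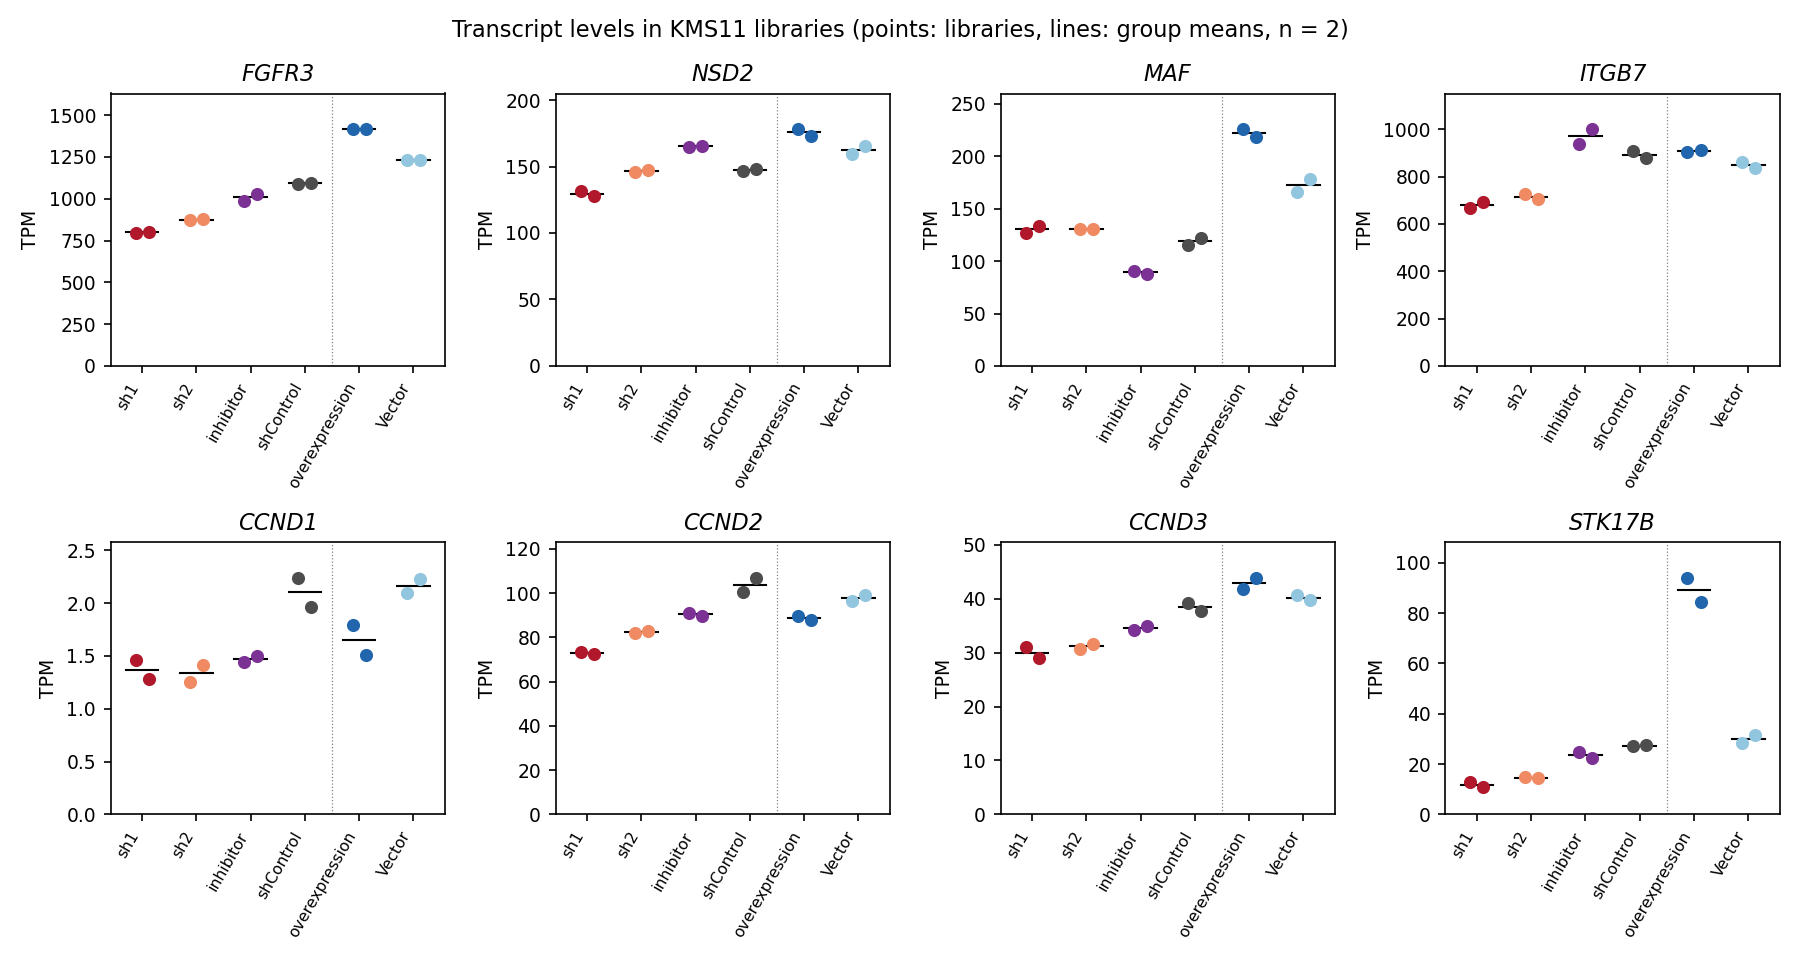
TPM in each of the 12 libraries, by group, with a panel for each of the 7 genes and for STK17B; points are libraries and lines are means of 2. FGFR3 sits between 795 and 1417 TPM, CCND1 between 1.26 and 2.24 TPM, and MAF is lowest with the inhibitor (90.7 and 88.0 TPM) and highest in overexpression (226 and 219 TPM).

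Most of these genes were lower with the hairpins and with the inhibitor. A change was called where limma, fitted to log2(TPM + 1) over the 12731 genes that reached 1 TPM in 2 libraries or more, gave a Benjamini-Hochberg adjusted p below 0.05; all 7 genes passed that filter. With the mean of both hairpins set against shControl, 6 of the 7 were lower and 1 was higher, in a comparison that called 46.3% of all tested genes (20.2% lower and 26.2% higher). With sh1 alone the count was also 6 lower and 1 higher, against 45% of all tested genes (21.3% lower and 23.7% higher), and with sh2 alone 5 lower and 1 higher, against 35.5% (13.4% lower and 22% higher). With the inhibitor 5 were lower and 2 were higher, against 39.9% of all tested genes (11.8% lower and 28% higher). With overexpression against Vector 3 were higher, 1 was lower and 3 were not called, against 36.8% of all tested genes (26.6% higher and 10.3% lower). These shares depend on the scale: of all calls, 70.3% were higher for the inhibitor as deposited, 55.9% on rescaling by the median of ratios and 51.9% on quantile normalization. For overexpression they were 72.1%, 43.2% and 46.3%. For both hairpins together they were 56.4%, 48.7% and 47.7%, and for sh2 alone 62.2%, 47.8% and 46.8%. Between Vector and shControl the share was 73.1%, 42.9% and 48.4%, between sh2 and sh1 it was 75.1%, 52.6% and 54.1%, and for the hairpin change minus the overexpression change it was 38%, 55.7% and 52%. The median log2 change of the 7 genes was -0.36 in the hairpin comparison (0.03 over all tested genes), -0.15 in the inhibitor comparison (0.08 over all) and 0.10 in the overexpression comparison (0.08 over all). Without shControl replicate 1 the hairpin count was 4 of 7, with NSD2, MAF and CCND1 no longer called, and without 1 of the 4 libraries the inhibitor count was 4 or 5 of 7. Set alone, each hairpin's MAF and CCND1 calls were lost without shControl replicate 1 (0.10 and -0.32 for sh1, 0.10 and -0.35 for sh2). They were also lost without sh1 replicate 2 (0.10 and -0.33) and without sh2 replicate 1 (0.14 and -0.36), and the MAF call of sh2 without sh2 replicate 2 (0.14). Most of these changes were small: CCND2, with the steepest fall of the 7 under the hairpins on the log2(TPM + 1) scale, retained 74.8% of its shControl level.

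**Figure D2:**
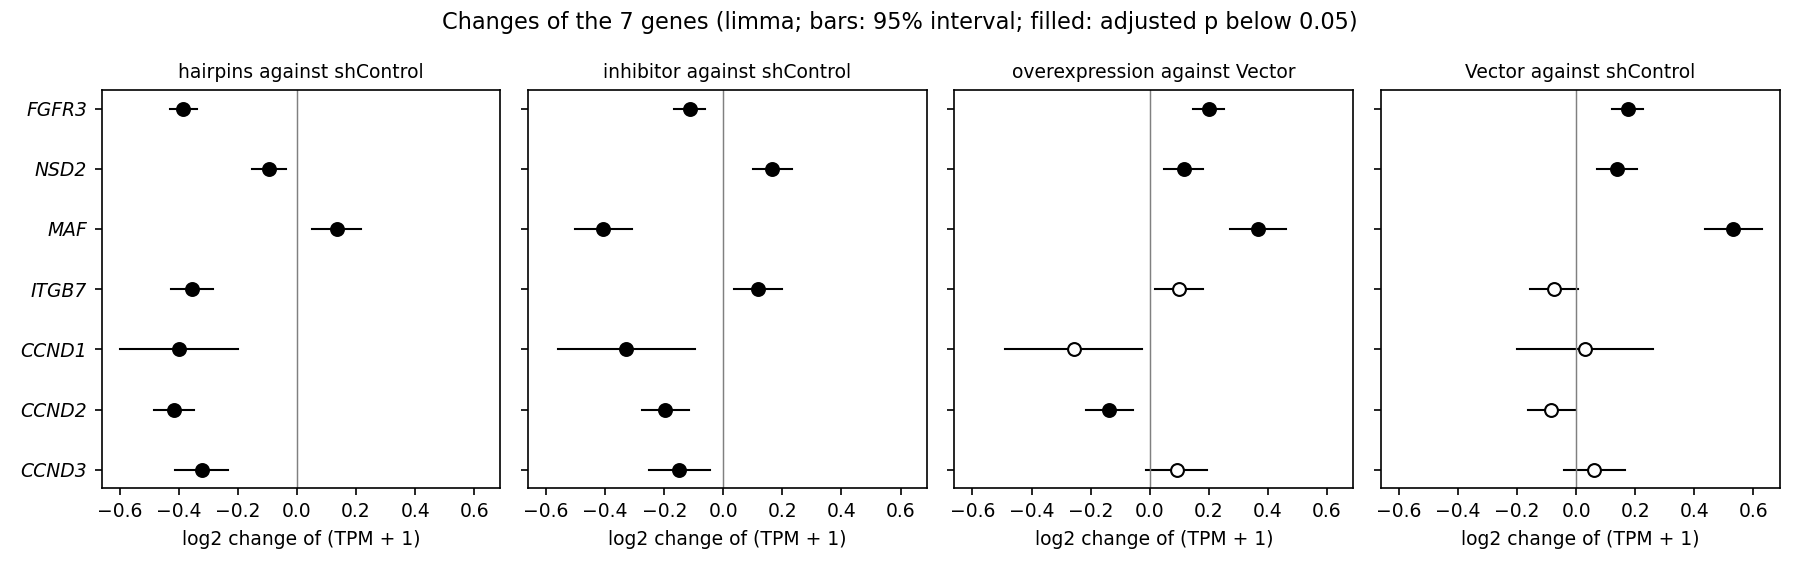
Log2 change of TPM + 1 with its 95% interval for each of the 7 genes, with panels for the hairpins, the inhibitor, overexpression and the controls; filled points passed an adjusted p of 0.05. The hairpin changes lie between -0.42 for CCND2 and 0.14 for MAF, which was -0.40 with the control columns exchanged, and MAF is at -0.41 with the inhibitor and 0.37 with overexpression.

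FGFR3 was lower with both hairpins and with the inhibitor, and higher with overexpression. It was at 795 and 804 TPM in the sh1 libraries and 873 and 879 TPM in the sh2 libraries, against 1088 and 1096 TPM in shControl. The 4 hairpin libraries all lay below both control libraries, with a log2 change of -0.38 (SE 0.02, adjusted p = 1.13e-06). The inhibitor libraries held 988 and 1031 TPM, also below both shControl libraries but by less, with a log2 change of -0.11 (SE 0.02, adjusted p = 0.00421). Overexpression libraries held 1417 and 1415 TPM, against 1233 and 1232 TPM in Vector (log2 change 0.20, SE 0.02, adjusted p = 2.04e-04), and the groups did not overlap. The hairpin change minus the overexpression change was -0.58 (SE 0.03, adjusted p = 2.82e-06), in a comparison that called 29.9% of all tested genes (18.5% lower and 11.4% higher); of the 7 genes, 6 were lower and CCND1 was not called. Quantile normalization ended the inhibitor call (-0.06) and rescaling by the median of ratios ended the overexpression call (0.09, adjusted p = 0.0842).

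NSD2, which the same translocation drives, had a smaller change than FGFR3 with the hairpins and with overexpression, and was higher with the inhibitor, where FGFR3 was lower. It was at 132 and 128 TPM in sh1 and 146 and 147 TPM in sh2, against 146 and 148 TPM in shControl. The sh1 libraries were below both controls (log2 change -0.18, SE 0.03, adjusted p = 8.55e-04), whereas the sh2 libraries overlapped with them (-0.01, 95% interval -0.07 to 0.06, adjusted p = 0.88). Both hairpins together gave -0.10 (SE 0.03, adjusted p = 0.013), a call lost when either shControl library was left out (-0.10 without replicate 1 and -0.09 without replicate 2). With the inhibitor NSD2 was higher, at 165 and 166 TPM (log2 change 0.17, SE 0.03, adjusted p = 0.00199). That call did not survive quantile normalization (0.06) or exchange of the control columns (0.03). In overexpression it was at 178 and 173 TPM, against 159 and 165 TPM in Vector (log2 change 0.11, SE 0.03, adjusted p = 0.0136). That call was lost without Vector replicate 1 (0.09), without overexpression replicate 1 (0.09) and after rescaling by the median of ratios (0.004). The ratio of FGFR3 to NSD2, both in TPM, was 6.04 and 6.29 in sh1, 5.97 and 5.97 in sh2 and 5.99 and 6.22 with the inhibitor, against 7.44 and 7.39 in shControl, so that all 6 of these libraries lay below both controls. In overexpression the ratio was 7.95 and 8.17, against 7.74 and 7.46 in Vector.

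Receptors and adaptors of the FGFR pathway were mixed. Of 14 listed genes 12 were tested, FGFR3 included. With the hairpins 3 were higher and 4 lower (median -0.11), and with the inhibitor none was higher and 4 were lower (median -0.10). With overexpression 4 were higher and 1 lower (median 0.12). Beside this list and those below stand the shares called over all tested genes. They were 26.2% higher and 20.2% lower with the hairpins, 28% and 11.8% with the inhibitor, and 26.6% and 10.3% with overexpression. PLCG1, the phospholipase C that FGF receptors recruit, was at 14.6 TPM with the hairpins and 13.8 TPM with the inhibitor, against 20.0 TPM in shControl, with log2 changes of -0.43 (adjusted p = 3.92e-05) and -0.50 (adjusted p = 6.74e-05). It was at 32.2 TPM in overexpression, against 22.2 TPM in Vector (0.52, adjusted p = 6.00e-05). The adaptor SHC1 was lower with the inhibitor (-0.19) and with overexpression (-0.24), and its change with the hairpins was 0.10, turning to -0.11 with the control columns exchanged. The hairpin counts became 1 higher and 3 lower without shControl replicate 1, and 2 higher and 2 lower without shControl replicate 2. The overexpression counts became 2 higher and 1 lower without overexpression replicate 1.

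Among 14 genes of the ERK feedback list, which growth factor receptors are known to raise through MAP kinase signalling, 11 were tested. With the hairpins 1 was higher and 3 lower (median -0.10), and with the inhibitor 2 were higher and 2 lower (median -0.14). Overexpression, where 26.6% of all tested genes were higher, gave 3 higher and none lower (median 0.10). Those 3 were SPRY1, a Sprouty inhibitor of receptor signalling, DUSP6, an ERK phosphatase, and SPRED1. SPRY1 was at 17.1 TPM in overexpression, against 10.0 TPM in Vector (log2 change 0.72, adjusted p = 1.48e-04), and DUSP6 was at 17.2 TPM, against 11.7 TPM (0.52, adjusted p = 0.00165). SPRED1 was at 6.73 TPM, against 4.58 TPM (0.47), a call lost without Vector replicate 1 (0.36) or overexpression replicate 1 (0.40). With the hairpins DUSP6 was lower (-0.24) but lost its call without shControl replicate 1 (-0.19), sh1 replicate 2 (-0.18) or sh2 replicate 1 (-0.23). Without shControl replicate 1 the hairpin count was none higher and 1 lower.

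The H3K36 list holds NSD2 with other genes linked to writing or erasing methylation at this histone lysine, and all 10 members were tested. The list does not separate the degrees of methylation, so its members need not act on the mark that NSD2 writes. With the hairpins 2 were higher and 2 lower (median -0.01), and with the inhibitor 2 were higher and 2 lower (median 0.08). With overexpression 4 were higher and none lower (median 0.09), NSD2 among the 4. Over all tested genes the median was 0.08 with the inhibitor and 0.08 with overexpression. The NSD2 call with overexpression was lost after rescaling by the median of ratios. The demethylase KDM4B was at 15.6 TPM with the inhibitor, against 26.5 TPM in shControl (log2 change -0.73, adjusted p = 3.28e-06), and at 47.0 TPM in overexpression, against 24.0 TPM in Vector (0.94, adjusted p = 8.29e-07). KDM4C, a related demethylase, was lower with the inhibitor (-0.26) and higher with overexpression (0.39). The hairpin counts became 2 higher and none lower without shControl replicate 1, and the overexpression count became 2 higher without Vector replicate 1 or without overexpression replicate 1.

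The list for 4p16 and 16q23 sets FGFR3, NSD2 and MAF beside the genes around them; all 11 genes were tested, of which 8 are neighbours, and the counts here leave the 3 oncogenes out. With the hairpins 6 of the 8 neighbours were lower (median of the 8, -0.21), while NELFA (0.12) and DYNLRB2 (0.05) were not called, and 3 were lower without shControl replicate 2. SLBP, which binds the stem-loop of histone mRNA, was at 143 TPM with the hairpins, against 227 TPM in shControl (log2 change -0.66, adjusted p = 6.31e-07). Its mean was 129 TPM in sh1 and 158 TPM in sh2. TACC3, a spindle protein whose gene lies beside FGFR3, was at 149 TPM, against 193 TPM (-0.37, adjusted p = 4.27e-06), and WWOX, the tumour suppressor gene beside MAF, was at 10.9 TPM, against 13 TPM (-0.24). The WWOX call was lost without shControl replicate 1 (-0.21), shControl replicate 2 (-0.26) or sh2 replicate 1 (-0.22). With the inhibitor TACC3 was higher (0.10) and NELFA lower (-0.23), with a median of 0.07 over the 8, and both calls were lost without either shControl library or without the variance trend. After rescaling by the median of ratios or quantiles, TACC3 was no longer called higher and 2 neighbours were lower. With overexpression 2 neighbours were higher and 2 lower (median -0.11, turning to 0.03 with the control columns exchanged). The higher count fell without Vector replicate 2 or overexpression replicate 1. TMEM129, another gene of the 4p16 group, was at 37.9 TPM, against 26.3 TPM in Vector (0.51), and SLBP at 154 TPM, against 180.1 TPM (-0.22).

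MAF was lower with the inhibitor and higher with overexpression, and its change with the hairpins depended on which control was used. It was at 127 and 133 TPM in sh1 and 131 and 131 TPM in sh2, against 116 and 122 TPM in shControl, so that the hairpin libraries lay above both controls, by 0.14 on the log2 scale (SE 0.04, adjusted p = 0.0138). The inhibitor libraries held 90.7 and 88.0 TPM, below both shControl libraries, with a log2 change of -0.41 (SE 0.04, adjusted p = 1.02e-04). The inhibitor libraries were lower than the hairpin libraries by -0.54 (SE 0.04, adjusted p = 3.10e-06), in a comparison that called 52.6% of all tested genes (21.6% lower and 30.9% higher). In overexpression MAF was at 226 and 219 TPM, against 166 and 178 TPM in Vector, a log2 change of 0.37 (SE 0.04, adjusted p = 1.92e-04). MAF also differed between the controls by more than any of these hairpin or overexpression changes: the Vector libraries exceeded shControl by 0.53 (SE 0.04, adjusted p = 4.57e-05), in a comparison that called 29.3% of all tested genes (21.4% higher and 7.86% lower). With the control columns exchanged, the hairpin change of MAF turned to -0.40 (adjusted p = 3.09e-05), and without shControl replicate 1 it was 0.10 and no longer called. The hairpin change minus the overexpression change was -0.23 (SE 0.06, adjusted p = 0.0127), a call lost without shControl replicate 2 (-0.20), Vector replicate 1 (-0.18) or overexpression replicate 1 (-0.21), and after rescaling by the median of ratios (-0.16).

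Of the 9 MAF family genes, which include the small MAF proteins and their BACH partners, 6 were tested. With overexpression 4 were higher and none lower (median 0.35): MAF itself and the small MAF genes MAFF, MAFG and MAFK. MAFG was at 56.9 TPM in overexpression, against 43.6 TPM in Vector (log2 change 0.38, adjusted p = 1.03e-04), and MAFK was at 29 TPM, against 22.8 TPM (0.33). MAFF, at 6.03 TPM against 4.36 TPM (0.39), lost its call without any 1 of the 4 libraries (0.35 to 0.43). With the hairpins 3 of the 6 were higher and 2 lower (median 0.05), and without shControl replicate 1 the count was 1 in each direction. With the inhibitor 1 was higher and 2 lower (median -0.02), MAFF being at 1.11 TPM, against 3.40 TPM in shControl (-1.06).

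ITGB7 encodes the integrin beta 7 subunit, which pairs with alpha 4 or alpha E in adhesion to stroma and epithelium. It was at 667 and 694 TPM in sh1 and 726 and 704 TPM in sh2, against 909 and 877 TPM in shControl. All 4 hairpin libraries were below both controls, with a log2 change of -0.36 (SE 0.03, adjusted p = 2.11e-05). The inhibitor libraries held 939 and 1001 TPM, above both shControl libraries, by 0.12 (SE 0.04, adjusted p = 0.0274). That call was lost without shControl replicate 2 (0.09), without inhibitor replicate 2 (0.07), after rescaling by the median of ratios (0.05), with no filter, without the variance trend and in a fit of only the groups compared. In overexpression it was at 906 and 911 TPM, against 860.2 and 836 TPM in Vector; the groups did not overlap, but the change of 0.10 (SE 0.04) did not pass the threshold (adjusted p = 0.0584) and was -0.01 after rescaling by the median of ratios. The inhibitor and hairpin libraries differed by 0.47 (SE 0.03, adjusted p = 2.67e-06).

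MAF and ITGB7 thus moved in opposite directions both with the hairpins and with the inhibitor. The exception was MAF, which was lower in the hairpins with the control columns exchanged. Both rises were small (0.14 for MAF with the hairpins, 0.12 for ITGB7 with the inhibitor), and neither call held under every alternative given above. The ratio of ITGB7 to MAF, both in TPM, was 5.25 and 5.21 in sh1, 5.55 and 5.38 in sh2 and 10.3 and 11.4 with the inhibitor, against 7.85 and 7.21 in shControl. In overexpression it was 4.01 and 4.17, against 5.18 and 4.69 in Vector. The hairpin libraries lay below the shControl range of this ratio and the inhibitor libraries above it. The hairpin libraries also lay above both Vector libraries, so their side depends on the inferred control columns. Over the 12 libraries, which share their groups, the Pearson correlation of MAF with ITGB7 was -0.05 and that of MAF with CCND2 was 0.04, given as a description.

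The MAF-class list holds 12 genes named in myelomas with a MAF translocation, and 9 were tested, ITGB7 and CCND2 included. With the hairpins 3 were higher and 5 lower (median -0.36), with the inhibitor 2 were higher and 5 lower (median -0.20), and with overexpression 2 were higher and 2 lower (median 0.08). Over the 7 other than ITGB7 and CCND2, the counts were 3 higher and 3 lower with the hairpins (median 0.02, turning to -0.13 with the control columns exchanged), 1 higher and 4 lower with the inhibitor (median -0.22; 1 and 2 without shControl replicate 1), and 2 higher and 1 lower with overexpression (median 0.08). DEPTOR, an inhibitor of mTOR, followed MAF in 2 comparisons: it was at 35.0 TPM with the inhibitor, against 49.6 TPM in shControl (log2 change -0.49, adjusted p = 3.65e-05), and at 68.6 TPM in overexpression, against 55.3 TPM in Vector (0.31, adjusted p = 5.42e-04). The hairpins differed: it was at 46.7 TPM in sh1 and 54.5 TPM in sh2, against 49.6 TPM in shControl, with log2 changes of -0.09 (not called) and 0.13 (adjusted p = 0.0354). The sh2 libraries exceeded the sh1 libraries by 0.22 (adjusted p = 0.0419), and both hairpins together gave 0.02, not called. CCR1, a chemokine receptor, was at 24.6 TPM with the hairpins and 12 TPM with the inhibitor, against 16.5 TPM in shControl (log2 changes of 0.55, adjusted p = 2.61e-05, and -0.43, adjusted p = 4.11e-04). Its hairpin change turned to -0.12 with the control columns exchanged and was then not called. ARID5A, an RNA-binding protein that stabilises messages, was at 162 TPM with the hairpins, against 130.5 TPM in shControl (0.31, adjusted p = 1.45e-05). The overexpression count became 2 higher and none lower without Vector replicate 2 or overexpression replicate 2.

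**Figure D3:**
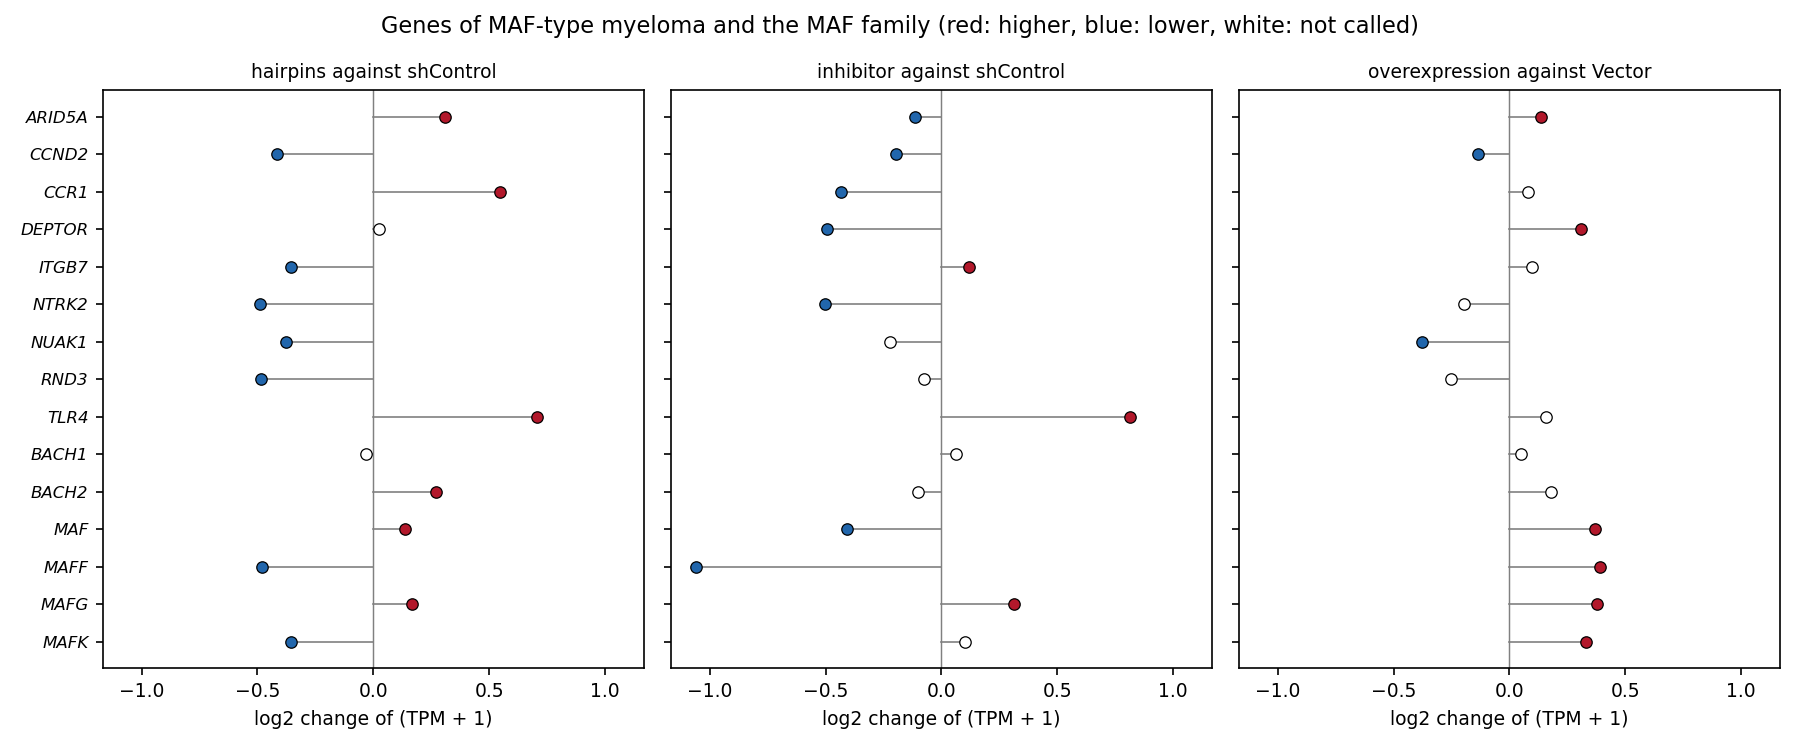
Log2 change of TPM + 1 for the tested genes of the MAF-class and MAF family lists (1 point per gene) with the hairpins, the inhibitor and overexpression; red points were called higher, blue points lower, and white points were not called. MAF, DEPTOR and CCR1 are lower with the inhibitor, ITGB7 is lower with the hairpins, and MAF and the 3 small MAF genes are higher with overexpression.

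The list for the 4p16 translocation class holds 8 genes, of which 7 were tested, FGFR3, NSD2 and CCND2 among them. With the hairpins 2 were higher and 4 lower (median -0.22), with the inhibitor 3 were higher and 2 lower (median 0.17), and with overexpression 2 were higher and 1 lower (median 0.09). Over the 4 genes beside FGFR3, NSD2 and CCND2, 2 were higher and 1 lower with the hairpins and 2 were higher with the inhibitor (1 without shControl replicate 1), while the 3 called with overexpression were FGFR3, NSD2 and CCND2 themselves. DSG2, a desmosomal cadherin, was at 16.9 TPM with the hairpins, against 19.8 TPM in shControl (log2 change -0.22), a call lost without shControl replicate 1 (-0.18). JAM3, a junctional adhesion molecule, was at 5.8 TPM with the hairpins and 6.09 TPM with the inhibitor, against 4.94 TPM in shControl (0.20 and 0.26). Its hairpin call was lost without shControl replicate 2 (0.13), sh1 replicate 2 (0.18) or either sh2 library (0.19 and 0.20), and its inhibitor call without shControl replicate 2 (0.19) or either inhibitor library (0.27 and 0.25). Without shControl replicate 2 or either inhibitor library, the inhibitor count was 1 higher and 2 lower. CDH2, the N-cadherin gene of this class, was called in none of these 3 comparisons.

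Of 13 partners, ligands and activators of integrin beta 7, 9 were tested. With the hairpins 3 were higher and 2 lower (median 0.09), with the inhibitor 2 were higher and 1 lower (median -0.05), and with overexpression 2 were higher and 1 lower (median 0.06). ITGA4, the alpha 4 subunit that pairs with beta 7, was at 21.3 TPM with the hairpins, against 25.4 TPM in shControl (log2 change -0.25, adjusted p = 0.00531), and was not called with the inhibitor (-0.14) or with overexpression (-0.02). FN1, which encodes fibronectin, a ligand of alpha 4 integrins, was at 5.30 TPM with the hairpins and 2.99 TPM with the inhibitor, against 7.58 TPM in shControl (-0.45 and -1.11), and at 6.15 TPM in overexpression, against 8.81 TPM in Vector (-0.46). RAP1B, a small GTPase that activates integrins, was higher with the hairpins (0.27) and with the inhibitor (0.28).

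The D cyclins were lower with both hairpins and with the inhibitor. CCND2, the main D cyclin of these cells, was at 73.1 and 72.3 TPM in sh1 and 82.1 and 82.9 TPM in sh2, against 100.5 and 107 TPM in shControl. The hairpin libraries lay below both controls, with a log2 change of -0.42 (SE 0.03, adjusted p = 7.70e-06). With the inhibitor it was at 91.0 and 89.7 TPM, also below shControl (-0.20, SE 0.04, adjusted p = 0.00217). In overexpression it was at 89.7 and 87.8 TPM, against 96.3 and 99.2 TPM in Vector (-0.14, SE 0.04, adjusted p = 0.0141), so that lower CCND2 went with lower and with higher STK17B. The overexpression call was lost without Vector replicate 2 (-0.12) or overexpression replicate 2 (-0.12). The hairpin change minus the overexpression change was still -0.28 (SE 0.05, adjusted p = 0.00208), a call lost with the control columns exchanged (-0.11).

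CCND3 was at 31.0 and 28.9 TPM in sh1 and 30.7 and 31.7 TPM in sh2, against 39.2 and 37.8 TPM in shControl. The hairpin libraries were below both controls (log2 change -0.32, SE 0.04, adjusted p = 1.65e-04). The inhibitor libraries held 34.2 and 35.0 TPM (-0.15, SE 0.05, adjusted p = 0.0281), a call lost when any 1 of the 4 libraries was left out (-0.18 to -0.12). In overexpression it was at 41.8 and 43.9 TPM, against 40.7 and 39.7 TPM in Vector, which did not pass the threshold (0.09, SE 0.05, adjusted p = 0.151) and was -0.02 after rescaling by the median of ratios. The hairpin change minus the overexpression change was -0.41 (SE 0.06, adjusted p = 9.83e-04).

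CCND1, the cyclin that another immunoglobulin translocation is known to drive, was barely above the 1 TPM limit. It was at 1.46 and 1.28 TPM in sh1 and 1.26 and 1.41 TPM in sh2, against 2.24 and 1.97 TPM in shControl, with a log2 change of -0.40 (SE 0.09, adjusted p = 0.00505) that was not called without shControl replicate 1 (-0.34). With the inhibitor it was at 1.44 and 1.5 TPM (-0.33, SE 0.10, adjusted p = 0.0301), a call lost when any 1 of the 4 libraries was left out (-0.39 to -0.26). In overexpression it was at 1.80 and 1.51 TPM, against 2.10 and 2.23 TPM in Vector; the groups did not overlap, but the change of -0.26 (SE 0.10) did not pass the threshold (adjusted p = 0.077). It did so after rescaling by the median of ratios (-0.32) or by quantile normalization (-0.41). The pseudocount makes changes at this level look smaller: the mean TPM with the hairpins was 64.3% of that in shControl.

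Taken as a sum, the 3 D cyclins were at 105.6 and 102.5 TPM in sh1, 114 and 116 TPM in sh2 and 127 and 126 TPM with the inhibitor, against 142 and 147 TPM in shControl. In overexpression the sum was 133 and 133 TPM, against 139 and 141 TPM in Vector. Each of these groups lay below its control without overlap. The 2 controls separated as well, with both Vector libraries below both shControl libraries. CCND2 made up 65.9% to 72.9% of the sum in the 12 libraries, CCND3 made up 25.7% to 33.0% and CCND1 made up 1.1% to 1.58%.

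**Figure D4:**
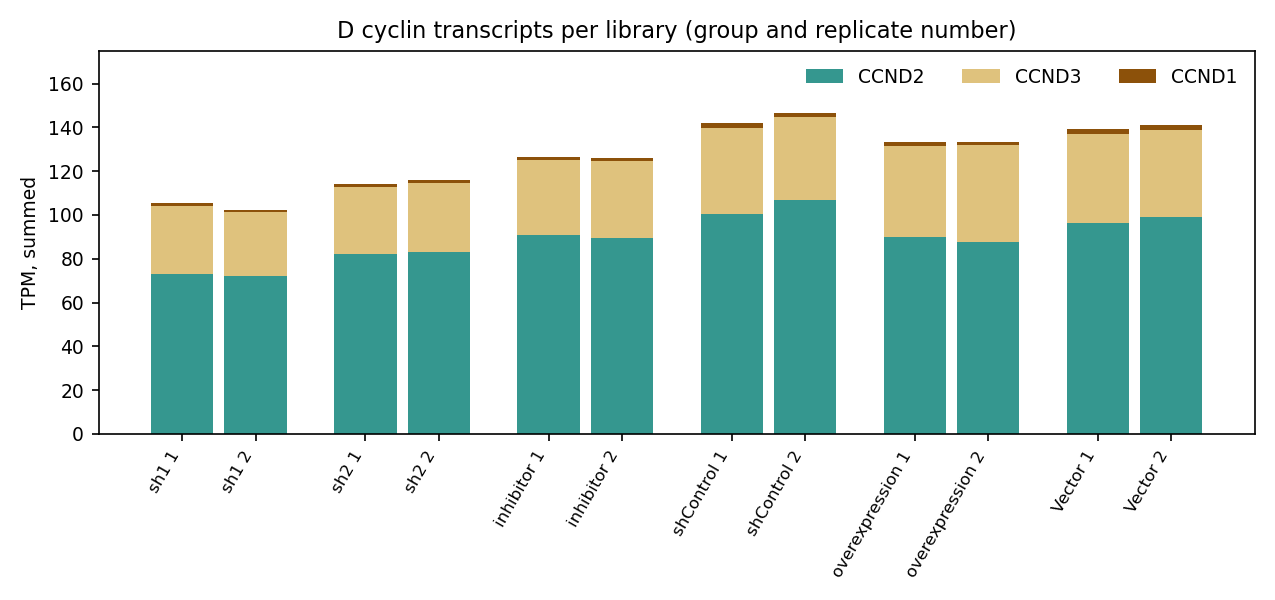
TPM of CCND2, CCND3 and CCND1 stacked to their sum, with 1 bar for each of the 12 libraries in 6 groups. The sums lie between 102.5 and 116 TPM in the hairpin libraries, against 142 and 147 TPM in shControl, and CCND2 is the largest share of every bar.

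CDK4 and CDK6, the kinases that D cyclins activate, and a set of CDK inhibitor genes were all tested, 9 in number. With the hairpins 2 were higher and 3 lower (median -0.10), with the inhibitor 3 were higher and 3 lower (median -0.00), and with overexpression 4 were higher and 3 lower (median 0.13). CDK6 was at 19.3 TPM with the hairpins, against 25.2 TPM in shControl (log2 change -0.38, adjusted p = 7.66e-04). CDK4 was at 209 TPM, against 229 TPM (-0.13), which turned to 0.16 and was called higher with the control columns exchanged. CDKN1B, the inhibitor p27, was higher with the hairpins (82.2 TPM, against 66.7 TPM in shControl, 0.30) and with the inhibitor (84.5 TPM, 0.34); both calls were lost with the control columns exchanged (0.03 and 0.07). CDKN1C, the inhibitor p57, was at 2.3 TPM with the inhibitor, against 6.20 TPM in shControl (-1.12, adjusted p = 2.64e-05), and at 17.5 TPM in overexpression, against 5.74 TPM in Vector (1.45, adjusted p = 6.32e-06). CDKN2D, the inhibitor p19, was at 17.9 TPM in overexpression, against 10.0 TPM in Vector (0.78, adjusted p = 5.80e-04).

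Genes of the RB and E2F list, which act after D cyclins at the entry to S phase, were mostly lower with the hairpins. Of 13 tested, none was higher and 9 were lower (median -0.16). Set alone, sh1 gave 9 lower and sh2 gave 6 lower, against 21.3% and 13.4% of all tested genes. CCNE1, cyclin E1, was at 22.1 TPM with the hairpins, against 41.6 TPM in shControl (log2 change -0.89, adjusted p = 6.36e-07). CCNE2 was at 21.5 TPM, against 29.9 TPM (-0.47, adjusted p = 8.23e-05). E2F2, an activator of S phase genes, was at 51.1 TPM, against 70.3 TPM (-0.46, adjusted p = 3.46e-06). In sh1 and sh2, CCNE1 was at 19.4 and 24.9 TPM, CCNE2 at 19.4 and 23.5 TPM, and E2F2 at 47.5 and 54.8 TPM. With the inhibitor 3 of the 13 were higher and 2 lower (median 0.08), with CCNE1 at 0.08 and not called. E2F1 was at 143 TPM with the inhibitor, against 118 TPM in shControl (0.28, adjusted p = 1.82e-04), and E2F4 was at 137 TPM, against 112 TPM (0.29). These counts became 2 higher and none lower without shControl replicate 2, 2 higher and 1 lower without inhibitor replicate 1, and 3 higher and none lower without inhibitor replicate 2. With overexpression 4 were higher and 1 lower (median 0.01), with RBL2, the RB relative p130, at 38.6 TPM, against 29.8 TPM in Vector (0.36), and E2F2 lower (-0.20). Without Vector replicate 1 none was higher and 1 was lower, RBL2 being at 0.29; without Vector replicate 2 or overexpression replicate 1, 2 were higher and 1 lower.

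**Figure D5:**
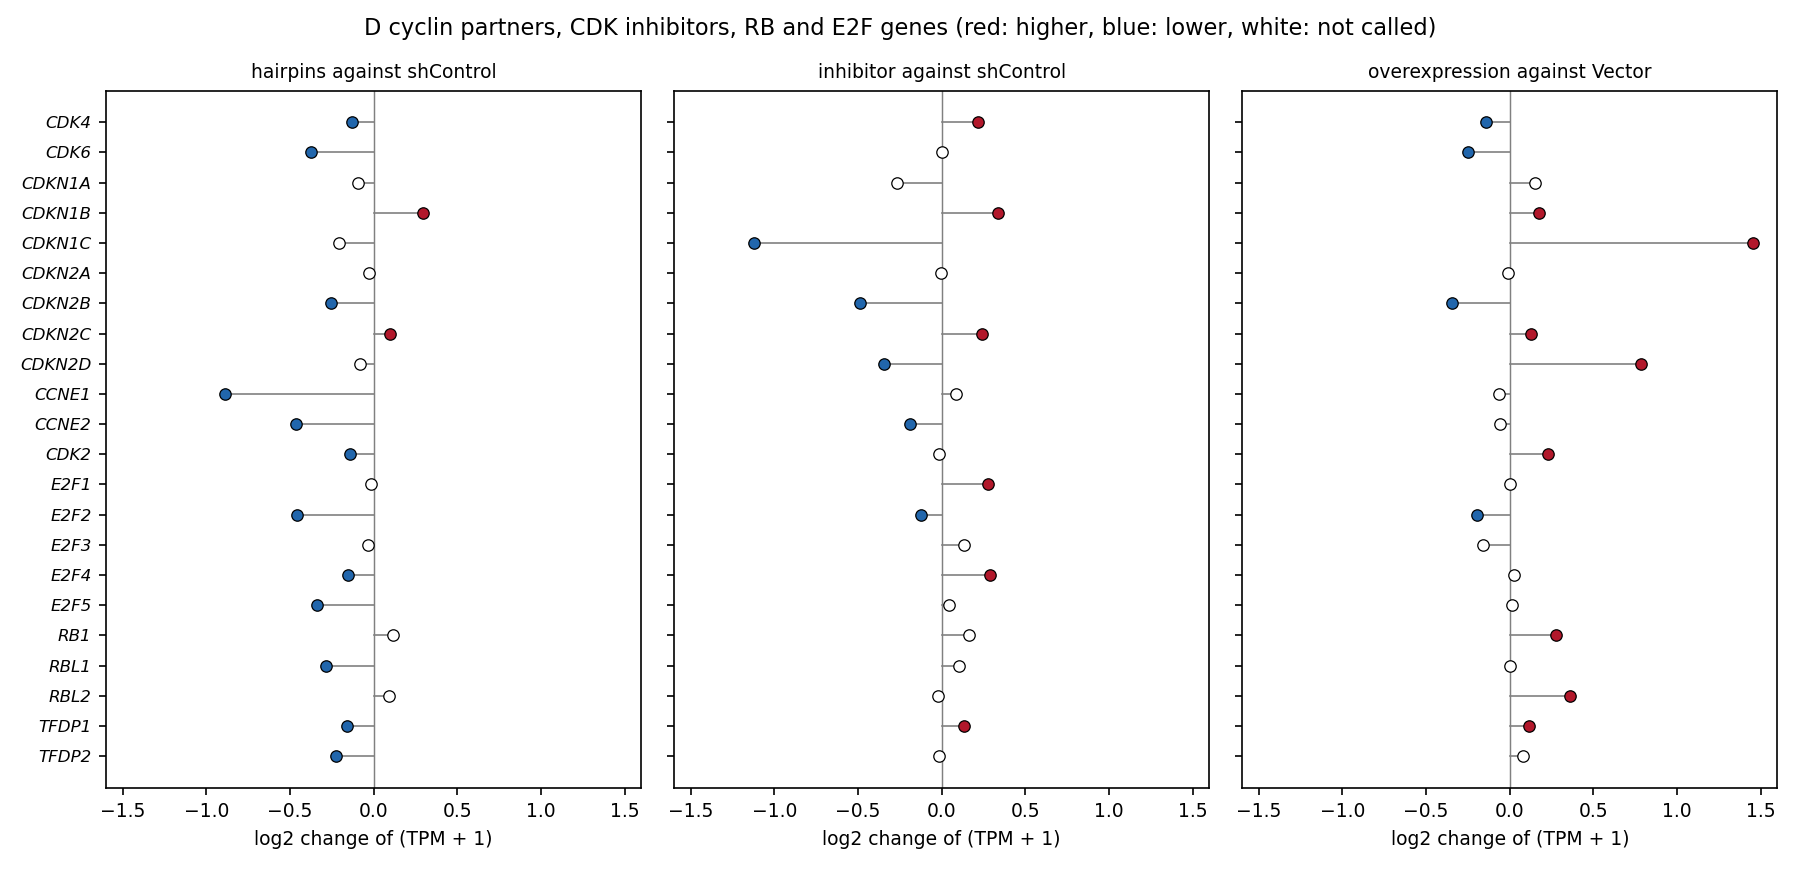
Log2 change of TPM + 1 for CDK4, CDK6 and CDK inhibitor genes and for the RB and E2F list (1 point per gene). Panels show the hairpins, the inhibitor and overexpression. Red points were called higher, blue points lower, and white points were not called. CCNE1 is at -0.89 with the hairpins, and CDKN1C is at -1.12 with the inhibitor and 1.45 with overexpression.

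Of 8 genes known to act on D cyclin stability, all were tested. With the hairpins none was higher and 2 were lower (median 0.07), and with the inhibitor 3 were higher and none lower (median 0.15). With overexpression 2 were higher and none lower (median 0.18). Over all tested genes 28% were higher with the inhibitor and 26.6% with overexpression. USP2, which removes ubiquitin from cyclin D1, was at 10.8 TPM with the hairpins and 20.1 TPM with the inhibitor, against 13.3 TPM in shControl (log2 changes of -0.28, adjusted p = 2.96e-04, and 0.56, adjusted p = 1.98e-05). It was at 19.7 TPM in overexpression, against 15.6 TPM in Vector (0.31). FBXW8, a ubiquitin ligase subunit, was the other gene lower with the hairpins (-0.24), and its call was lost when any 1 library was left out (-0.30 to -0.19). AMBRA1, the ubiquitin ligase subunit that targets D cyclins, was the other gene higher in overexpression (0.18), and its call was likewise lost when any 1 library was left out (0.16 to 0.20).

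The hairpins differed from each other in 3 of the 7 genes, in a comparison that called 1.55% of all tested genes (1.16% higher and 0.385% lower). FGFR3 was higher in sh2 than in sh1 by 0.13 (SE 0.02, adjusted p = 0.0345), NSD2 by 0.18 (SE 0.03, adjusted p = 0.027) and CCND2 by 0.18 (SE 0.04, adjusted p = 0.0453). Each of the 3 calls was lost when any 1 of the 4 libraries was left out (FGFR3 0.12 to 0.14, NSD2 0.15 to 0.20, CCND2 0.17 to 0.19). STK17B itself changed by -1.14 in sh1 and -0.86 in sh2 on the log2 scale, and sh2 and sh1 did not differ past the threshold in it (0.29, SE 0.08, adjusted p = 0.116).

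The inhibitor libraries were above the hairpin libraries in 5 of the 7 genes, below them in MAF, and not distinguishable in CCND1 (0.07, 95% interval -0.13 to 0.27, adjusted p = 0.531). The same comparison called 52.6% of all tested genes, 30.9% higher and 21.6% lower. The 5 were ITGB7, FGFR3 (0.27, adjusted p = 5.50e-06), NSD2 (0.26, adjusted p = 2.75e-05), CCND2 (0.22, adjusted p = 2.61e-04) and CCND3 (0.17, adjusted p = 0.00501), the last of which was not called on quantile normalization (0.10). The controls also differed. Vector exceeded shControl in FGFR3 (0.17, SE 0.02, adjusted p = 7.16e-04) and NSD2 (0.14, SE 0.03, adjusted p = 0.00764) beside MAF, and the other 4 genes were not called between them. Rescaling by the median of ratios ended the FGFR3 (0.07) and NSD2 (0.03) calls and added ITGB7 (-0.18) and CCND2 (-0.19). The NSD2 call was also lost without shControl replicate 1 (0.13) or Vector replicate 2 (0.11).

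The genes whose log2(TPM + 1) followed each member most closely over the 12 libraries were taken from about 8560 others with a mean of at least 5 TPM and a RefSeq protein, as a description. Among those closest to FGFR3 were ERMP1 (Pearson r 0.98) and PHF20 (0.98), and those closest to CCND3 were INCENP (0.99), ERMP1 (0.98) and KDM1A (0.98). Among those closest to NSD2 were INTS2 (0.98) and HMGB2 (0.98), and ITGB7 was followed by AP3D1 (0.98), POFUT1 (0.98) and TCF19 (0.98). Closest to MAF were WBSCR27 (0.996), NFATC4 (0.99) and NME4 (0.99), and closest to CCND2 were SEC11C (0.98), IRF4, a plasma cell transcription factor (0.98), and DTL (0.97). CCND1, at its low level, reached 0.93 with ZNF275, GLA and GLDC. Among the members themselves FGFR3 and CCND3 were the most alike (0.97). The 12 points share 6 groups, so these values mostly describe differences between group means.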

How the data were processed

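Values for 29607 genes in 12 libraries were TPM as deposited by the authors. Per the labels' protocols, RNA was poly(A)-selected and sequenced as stranded libraries. Per the submitters' processing notes, the genome was GRCh38.p13 and the tools named, with no role given, were DESeq2 1.4.5, RSEM 1.3.1, Bowtie2 2.3.4.3 and HISAT. Reads assigned to each gene are not used here, so depth is unknown. The control columns were assigned by matching their numbers to the labels' library numbers, which is inferred, not stated.

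The 12731 genes that reached 1 TPM in 2 libraries or more were tested on log2(TPM + 1) with limma 3.58.1 in R 4.3.3: 1 mean per group over all 12 libraries, eBayes with a trend, Benjamini-Hochberg adjustment over all tested genes, and calls at an adjusted p below 0.05 in 9 comparisons. The fit was tested on simulated data. With 2 libraries against 2, a two-sided exact permutation test cannot go below p = 0.333, and none was used. The members and 11 gene lists were chosen with earlier results of these data known. Every member is named; from each list up to 4 genes with the largest called change and a mean of at least 5 TPM in 1 group compared were taken, and the text names some of these, with a few others of known role. A few genes of the lists or closest to a member are not reported here. Same-numbered libraries did not deviate together (r from -0.10 to 0.14 over 15 pairs of groups). The settings varied were the pseudocount (0.1 and 0.5), the filter (none, or 5 TPM), the libraries in the fit (those compared), the scale (median of ratios, or quantiles), the variance trend, a replicate block, exchange of the control columns, and omission of each library. Applying them to the lists, and counting lists without the 7 genes, was chosen after seeing the data. Coordinates are from GENCODE v29, promoter windows from RefSeq.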

Additional observations from a re-analysis of the deposited data

How the results depend on the processing

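Over the 7 genes and 9 comparisons, 828 results kept their direction and side of the threshold under an alternative, 82 lost a call, 10 gained one and 16 changed sign. With the control columns exchanged, MAF turned to -0.40 for the hairpins, -0.40 for sh1 and -0.39 for sh2, called lower in each; genes called went to 7468 for overexpression (4689 as reported) and 7605 for the hairpin minus overexpression change (3806 as reported). Among list genes, that exchange turned CCR1 (-0.12), MAFG (-0.057), SHC1 (-0.11), KDM4A (-0.053) and CDK4 (0.16) in the hairpins, CCNE2 (0.024) with the inhibitor and CDKN2B (0.032) in overexpression. The median of ratios turned, none of them called, ITGB7 (-0.012), CCND3 (-0.017) and the integrin adaptor TLN1 (-0.012) in overexpression, CCND1 (-0.041) and CCND3 (-0.040) between Vector and shControl, and MAF between sh2 and sh1 (-0.030). Quantile normalization turned CCND1 between Vector and shControl (-0.15) and MAF between sh2 and sh1 (-0.0039).

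Between sh2 and sh1, 197 genes were called as reported, 114 with no filter, 331 at 5 TPM, 97 after the median of ratios, 21 without trend, 23 with only those groups, and 114 with the replicate block; 3 of the 7 genes were called as reported, 1 with no filter and 0 after the median of ratios, without trend and with only those groups. The replicate block ended the CCND2 call there (adjusted p = 0.0616) and no other call of the 7. Leaving out 1 library gave 14 to 81 genes and 0 of the 7 between sh2 and sh1, 2099 to 2825 genes between Vector and shControl (3724 as reported), 4 to 7 of the 7 for the hairpins and 4 to 5 for the inhibitor. It spread NSD2 for sh2 from -0.016 to 0.0026, CCND1 between Vector and shControl from -0.035 to 0.094, MAF between sh2 and sh1 from -0.027 to 0.040 and CCND1 there from -0.075 to 0.035, none called. The MAF call of sh1 was lost under 7 alternatives and that of sh2 under 7, beside the exchange.

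In overexpression against Vector the median change of all genes was 0.08 as deposited, and quantile normalization shifted it by -0.10. Unknown depth limits what can be said of CCND1. The causes of these changes were not tested.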
